A study of Mus musculus with 8 samples.

Results

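Cycling epithelial cells of mouse colon organoids are described here, defined as cells of the organoid libraries with at least 1 UMI (unique molecular identifier, 1 counted RNA molecule) of Epcam and at least 2 UMIs each of Mki67 and Top2a, among barcodes with at least 500 genes, at least 2000 UMIs and at most 10% mitochondrial UMIs. The rule found 5956 such cells, 3377 in organoid replicate 1 and 2579 in replicate 2, among the 9302 Epcam-positive organoid cells that passed these limits and among 42929 in all 6 epithelial libraries. They were set against 611 organoid cells called non-cycling, which carried 0 UMIs of both genes. That name stands for the count alone, and whether some of these cells were in cycle was not tested. The 2735 organoid cells between the limits entered neither class. The cells were chosen by their Mki67 and Top2a counts, and for that reason both genes and the contrast of the 2 classes within organoids are given as a description, as levels, log2 differences with the SE of the fit, and counts of genes above 0. No p-value is given for them. The calls of that fit follow from the rule, and they serve only to choose genes to name and to show how the fit depends on its settings. Tests are kept for comparisons with other groups.

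The study asked how epithelium grown with its stroma compares with epithelium grown alone and with native colon, and the epithelial libraries came from C57BL/6 mice. The methods of the study give male mice of 6 to 12 weeks of age. Organoids were grown from colon crypts in Matrigel, without stromal cells, passaged at least once, in full medium holding EGF, the TGF-beta receptor inhibitor A83-01, a Wnt surrogate, the GSK3 inhibitor CHIR-99021, R-spondin 1 and noggin. Assembloids were organoids embedded with cultured primary stromal cells, in the same kind of medium without Wnt surrogate, CHIR-99021, R-spondin 1 and noggin, and tissue cells came straight from colon crypts. Each of the 3 groups had 2 libraries labelled as epithelial cells, which the study calls biological replicates without tying each to an animal. For cycling cells compared between groups, p-values measure the spread between these libraries. Where the difference between the 2 classes is compared between groups, they measure how that difference varies between libraries. Both spreads are pooled over the 3 groups. Medium, stroma and the dissociation protocol all differed between the groups and cannot be told apart.

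A dividing cell passes from G1 into S phase, when its DNA is copied, and through G2 into mitosis. E2F factors switch on the genes of DNA replication at the G1 to S border, while the DREAM and B-MYB complexes restrict many mitotic genes to G2 and M through a promoter element called CHR, often next to a CCAAT box bound by NF-Y. In the colon, division is confined to the lower crypt, where Wnt signals keep Lgr5-positive stem cells and their transit-amplifying daughters in cycle, and cells leave the cycle as they become colonocytes, goblet cells or enteroendocrine cells.

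The promoters of 4 genes from the 2 phases are shown because the CHR and E2F letters are unevenly spread between the lists of the 2 phases. Each run holds 250 bases before and 50 bases after the start of the gene, from RefSeq on GRCm38.p6, read 5′ to 3′ on the strand of the gene. Capitals mark the CHR letters TTTGAA and CCAAT boxes in Cdc20, an activator of the anaphase-promoting complex (chr4:118437294-118437593, minus strand), and in Ube2c, the ubiquitin-conjugating enzyme of that complex (chr2:164769679-164769978, plus strand). In Mcm5, a subunit of the replicative helicase (chr8:75109259-75109558, plus strand), and Cdc6, which loads the helicase (chr11:98907901-98908200, plus strand), capitals mark only the E2F letters, although Mcm5 also holds CCAAT 77 and 22 bases before its start and 6 bases after it. Matches on either strand are in capitals.
Cdc20: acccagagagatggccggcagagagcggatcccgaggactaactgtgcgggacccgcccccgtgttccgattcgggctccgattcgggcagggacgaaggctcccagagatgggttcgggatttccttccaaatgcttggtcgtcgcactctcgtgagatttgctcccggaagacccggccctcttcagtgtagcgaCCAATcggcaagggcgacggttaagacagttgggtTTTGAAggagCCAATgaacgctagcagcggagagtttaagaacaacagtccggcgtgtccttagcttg
Ube2c: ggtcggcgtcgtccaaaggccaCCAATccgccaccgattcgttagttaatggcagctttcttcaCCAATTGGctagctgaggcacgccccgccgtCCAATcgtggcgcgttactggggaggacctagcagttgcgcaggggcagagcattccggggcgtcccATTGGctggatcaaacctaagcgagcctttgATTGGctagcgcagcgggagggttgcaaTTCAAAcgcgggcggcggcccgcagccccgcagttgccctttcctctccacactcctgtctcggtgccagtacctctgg
Mcm5: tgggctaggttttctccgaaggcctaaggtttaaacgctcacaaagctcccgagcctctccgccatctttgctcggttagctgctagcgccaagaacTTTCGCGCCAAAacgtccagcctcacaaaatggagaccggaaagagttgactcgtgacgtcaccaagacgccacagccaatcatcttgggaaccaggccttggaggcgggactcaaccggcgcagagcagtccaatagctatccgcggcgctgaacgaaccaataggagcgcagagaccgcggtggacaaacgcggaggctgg
Cdc6: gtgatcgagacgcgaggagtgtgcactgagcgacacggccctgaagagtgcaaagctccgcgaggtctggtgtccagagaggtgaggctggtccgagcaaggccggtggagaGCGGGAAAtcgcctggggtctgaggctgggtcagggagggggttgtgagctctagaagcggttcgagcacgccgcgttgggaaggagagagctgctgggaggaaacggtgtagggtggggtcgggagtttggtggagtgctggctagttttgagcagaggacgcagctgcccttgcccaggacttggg

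The CHR letters lay 18 bases before the start in Cdc20 and 29 bases before it in Ube2c, each with a CCAAT box within 35 bases upstream of them, at 53 and 57 bases. The E2F letters lay 138 bases before the start of Cdc6 and 153 and 149 bases before that of Mcm5, where the 2 matches overlap. Across the list of 49 mitotic genes, 42 had a promoter entry and 29 of these (69.0%) held TTTGAA on either strand. Among the 31 replication genes with an entry, 3 (9.68%) held it, against 15.5% of the 12901 genes tested with an entry. The E2F octamers TTTCCCGC, TTTGGCGC, TTTCGCGC and TTTGCCGC showed the opposite distribution, with 14 of 31 replication genes (45.2%) and 1 of 42 mitotic genes (2.38%), against 4.15% of genes tested. CCAAT alone was common to both lists, in 30 of 42 mitotic promoters (71.4%) and 19 of 31 replication promoters (61.3%), against 42.1% of genes tested. TTTGAA together with CCAAT was in 24 of the 42 mitotic promoters (57.1%) and in 6.14% of those tested. A match of letters is a description of the sequence and not a bound site.

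Cycling cells made up 71.0% (95% exact binomial interval 69.7 to 72.3) of Epcam-positive cells in organoid replicate 1 and 56.7% (55.3 to 58.2) in replicate 2. The mean was 63.9% ± 10.1 (SD, n = 2) in organoids, 13.4% ± 4.41 (n = 2) in assembloids and 7.90% ± 2.53 (n = 2) in tissue, and neither organoid library overlapped with a library of the other groups. With 2 libraries against 2, no exact test can pass the threshold, so the shares stand without a p-value. The same rule found 2243 and 1108 cycling cells in assembloids and only 236 and 168 in tissue. Their UMIs summed to 6248188 and 3684128 in tissue, against 150950088 and 61880124 in organoids. Non-cycling cells made up 5.28% and 7.92% of organoid cells in the 2 replicates, against a mean of 41.3% in assembloids and 62.4% in tissue.

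The share rose from bin to bin of depth in every library but organoid replicate 1. There it was 38.9% (interval 28.8 to 49.7) between 5000 and 10000 UMIs and 25.5% (21.1 to 30.3) between 10000 and 20000, and rose above that. The fixed count of 2 UMIs was reached by fewer of the same cells after thinning, as given below. How much of the rise with depth comes from this and how much from more RNA in cycling cells cannot be told apart here. Median depth of the cycling cells was 40072 UMIs in organoid replicate 1 and 21544 in replicate 2, against 14829 and 21935 in assembloids and 22824 and 19920 in tissue. When every cell was thinned to 5000 UMIs, cycling cells were 18.1% and 21.7% of organoid cells, 6.91% and 5.67% of assembloid cells and 5.25% and 3.99% of tissue cells. The order of the groups was kept, while the 2 organoid replicates changed places. Non-cycling cells after thinning were 23.3% and 19% of organoid cells, against a mean of 52.8% in assembloids and 77.0% in tissue. Thinning left out 62 and 287 organoid cells with fewer UMIs, 11325 and 713 assembloid cells and 203 and 844 tissue cells.

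Among cells of 20000 to 40000 UMIs, the share was 64.8% and 76.2% in organoids, 50.5% and 24.6% in assembloids and 11.6% and 12.7% in tissue. Of cells with 40000 UMIs or more, 91.4% and 89.1% were cycling in organoids, 76.5% (interval 58.8 to 89.3) and 45.4% in assembloids and 34.3% and 34.1% in tissue. Between 10000 and 20000 UMIs the organoid replicates stood apart, at 25.5% and 55.2%, and the lower of them lay close to the 22.3% of assembloid replicate 1. Both organoid shares lay above those of the other groups in each of these 3 bins, with a margin that varied from bin to bin.

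**Figure D1:**
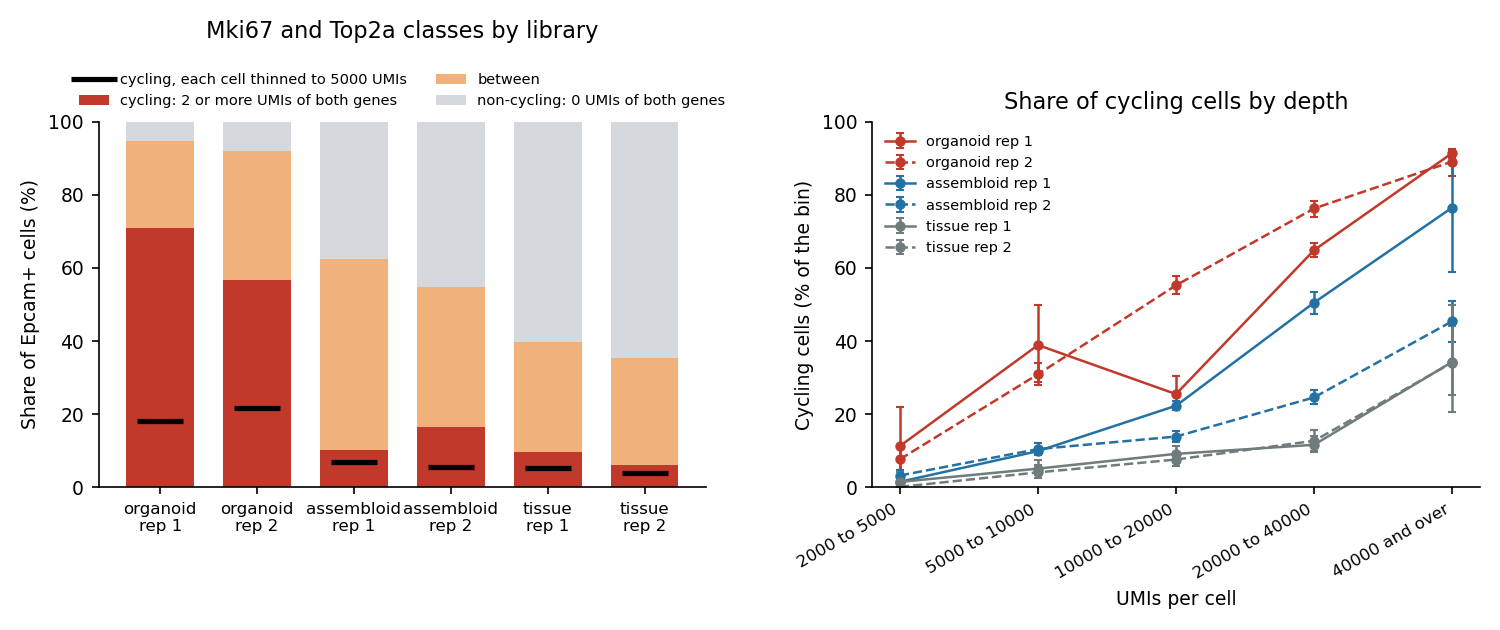
Left, share of Epcam-positive cells (%) by library in the cycling, between and non-cycling classes, with a black line at the cycling share after thinning each cell to 5000 UMIs; right, cycling share (%) in bins of UMIs per cell, with 95% exact binomial intervals. Organoid bars reach 71.0% and 56.7% unthinned and 18.1% and 21.7% thinned, and stay above both tissue libraries in every bin of depth.

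The cycling organoid cells were checked against markers of other cell types. Krt8, an epithelial keratin that the rule did not use, had a UMI in 98.8% and 97.1% of them after thinning. Summed immune markers reached 0.7 and 0.9 CPM (counts per 1e6 UMIs of the summed cells) and summed fibroblast markers 0.5 and 0.8 CPM, with the leukocyte marker Ptprc and the collagen Col3a1 in 0% of thinned cells of either replicate. In the assembloid cycling cells the same lists summed to 106 and 224 CPM and to 211 and 304 CPM, with Col3a1 in 12.6% and 8.29% of thinned cells. Tissue cycling cells held 59.2 and 8.4 CPM of immune markers. The part of that foreign RNA in comparisons with assembloids was not tested.

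The members carried a mean of 12 and 7.87 UMIs of Mki67 and of 21.1 and 13.2 UMIs of Top2a in the 2 replicates. Just inside the limit, 378 and 482 cells had 2 UMIs of the rarer of both genes, at a median depth of 31023 and 15740 UMIs and with 59.5 and 62.9 CPM of Ccnb1. Just outside it, 556 and 753 cells had 1 UMI of the rarer gene, at 27960.5 and 13338 UMIs and with 55.7 and 50.5 CPM of Ccnb1. Cdk1, the mitotic kinase, was at 85.6 and 76.4 CPM inside and 66.9 and 59.8 CPM outside, and Cdkn1a, the inhibitor p21, at 64.2 and 56.1 CPM inside and 79.9 and 78.5 CPM outside. The organoid libraries shared 9 passing barcodes, of which 4 were cycling in both, and shared between 3 and 34 with any library of the other groups. Over 6220 genes at 20 CPM or more in the cycling cells, the replicates differed by a median of 0.363 on the log2 scale, and 179 genes (2.88%) differed by more than 2-fold.

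Within the cycling cells, S-phase and mitotic RNA divided the population. The 38 replication genes took a median of 0.348% and 0.306% of the UMIs of a cell in replicates 1 and 2, and the 49 mitotic genes 0.398% and 0.408%. The 2 shares ran in opposite directions across cycling cells, with a Spearman rho of -0.642 over 3377 cells and -0.544 over 2579 cells, whereas in the 251 and 360 non-cycling cells rho was 0.520 and 0.523. Both shares come from the same UMIs of the same cell, and cells of 1 library are not independent samples. In cycling tissue cells rho was -0.227 and -0.371, and in cycling assembloid cells 0.191 and 0.145. The mitotic list took more UMIs than the replication list in 54.1% and 60.4% of organoid cycling cells, 65.7% and 56.0% of those in tissue and 91.0% and 89.5% of those in assembloids.

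With the 95th percentile of non-cycling cells of the same library as a limit, 20.6% and 16.3% of organoid cycling cells passed it for replication genes alone and 51.7% and 53% for mitotic genes alone. Those past both limits were 19.7% in replicate 1 and 3.33% in replicate 2. A further 8.05% and 27.3% passed neither, although each carried at least 2 UMIs of Mki67 and of Top2a. The limits themselves were lower in replicate 1, at 0.383% against 0.419% for replication genes and 0.294% against 0.368% for mitotic genes, in non-cycling cells of unequal depth. For replication genes the limits lay above the medians of the cycling cells, 0.348% and 0.306%, so some non-cycling cells held as much replication RNA as cycling ones.

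**Figure D2:**
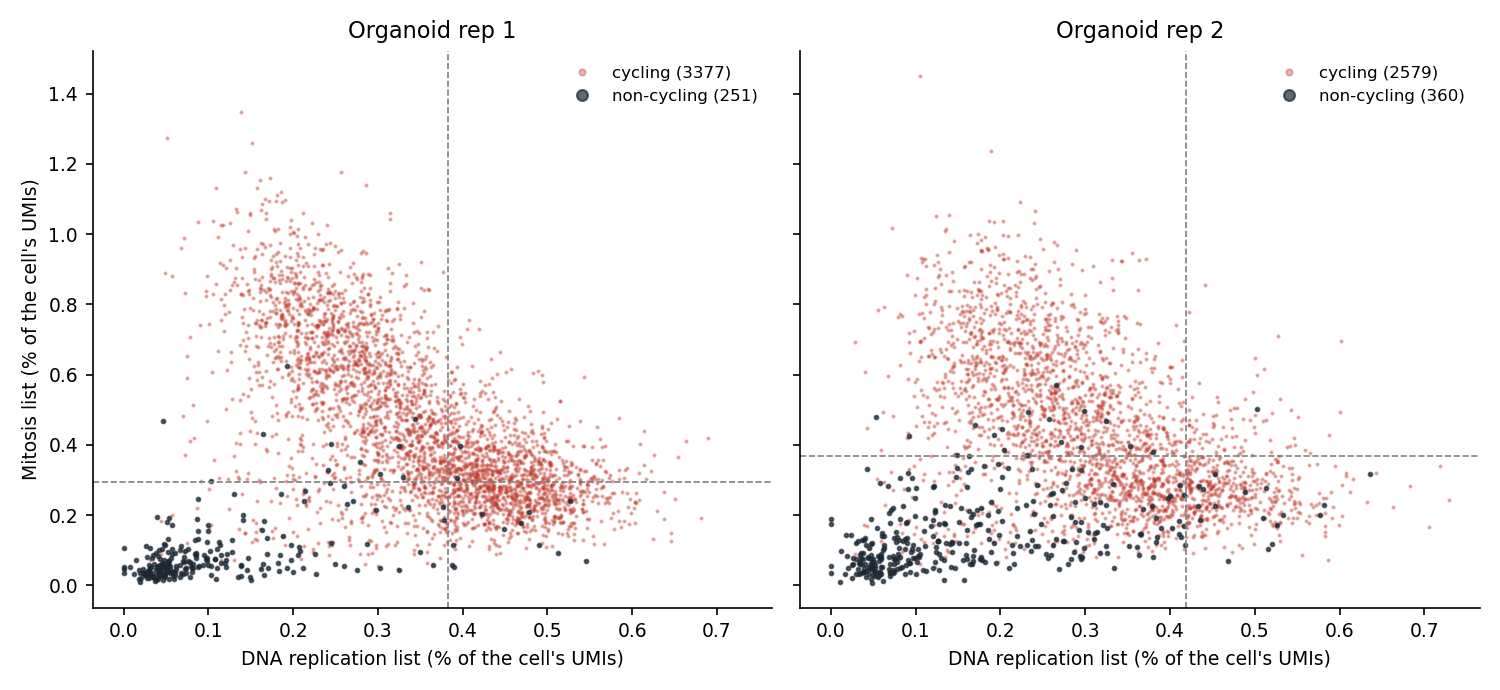
Share of each cell's UMIs (%) in the 38 replication genes (x axis) and the 49 mitotic genes (y axis) for organoid replicates 1 and 2, with cycling cells in red and non-cycling cells in black; dashed lines mark the 95th percentile of non-cycling cells. Cycling cells run along a falling band, with rho of -0.642 and -0.544, and non-cycling cells are densest near the origin, with a wider spread in replicate 2.

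To see which other genes followed this axis, cycling cells were ordered by the mitotic share of the UMIs of both lists and cut into 3 groups of 1126, 1126 and 1125 cells in replicate 1 and of 860, 860 and 859 in replicate 2. Genes outside both lists are the informative ones, since the lists made the order. Ccne2, a cyclin that drives S-phase entry, went from 60.5 through 28.7 to 6.09 CPM from the lowest to the highest mitotic group in replicate 1 and from 54.1 through 22.2 to 5.8 CPM in replicate 2. E2f1 went from 37.4 to 9.33 CPM and from 32.8 to 8.42 CPM. Brca1, a DNA repair gene, went from 56.6 to 18.9 CPM and from 82.2 to 29.8 CPM. All 3 are genes of the G1 to S border or of replication-coupled repair, and were highest in the cells with the smallest mitotic share.

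In the other direction, Ccnf, which targets cell-cycle proteins for breakdown in G2, went from 10.3 to 39.8 CPM and from 14.7 to 65.1 CPM. Smc4, a condensin subunit that compacts chromosomes, went from 119.6 to 249.8 CPM and from 125 to 255 CPM. The histone H1 gene Hist1h1b was at 436, 468 and 398 CPM across the 3 groups of replicate 1 and at 197, 219 and 194 CPM in replicate 2. Hist1h1b therefore showed no gradient along this axis, although it differed greatly between cycling and non-cycling cells. The stem cell gene Lgr5 was at 146, 108 and 129 CPM and at 280.2, 261 and 344 CPM, with log2 differences of -0.19 and 0.30 that differ in sign between the replicates. Ascl2, a Wnt-driven factor of stem cells, was at 58.7, 58.4 and 72.3 CPM and at 43.2, 54 and 59.4 CPM. Cells at either end of the axis thus carried these stem cell transcripts.

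Against non-cycling organoid cells, cycling cells held more of nearly every gene of division. The edgeR fit called 27.2% of 17590 genes between the classes (19% higher, 8.21% lower), and 17.1% of 14123 genes (8.35% higher, 8.79% lower) when both classes were drawn to the same depths. Without TMM scaling the split was 1880 higher and 2628 lower, against 3334 and 1445 with it. These calls follow from a selection on Mki67 and Top2a, and they serve only to name genes by the size of their difference and to show how far the fit depends on its settings. All 38 replication genes had a positive difference, with a median log2 difference of 1.58 beside 0.10 over all genes. All 49 mitotic genes did, with a median of 2.84, and Pttg1, which encodes securin, was nearest to 0, at 0.08 with TMM scaling and -0.15 without it, from 24.2 and 22.4 CPM against 30.7 and 21 CPM before scaling. All 17 cohesin and condensin genes and all 25 genes of the DNA damage response were also positive, with medians of 2.24 and 1.85. When both classes were drawn to the same depths, 38 of 38 replication genes and 48 of 49 mitotic genes were positive, with medians of 1.29 and 2.74.

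Among single replication genes, Mcm5 was at 86.9 and 96.4 CPM in cycling cells and at 27.3 and 46.4 CPM in non-cycling cells of replicates 1 and 2, a log2 difference of 1.58 ± 0.267 (SE). Cdc6 was at 32.9 and 31.8 CPM against 9.96 and 13.8 CPM. Rrm2, the ribonucleotide reductase subunit that supplies deoxynucleotides, was at 127 and 102 CPM against 28.9 and 28.1 CPM. The levels of the classes lay apart for all 3, a separation that the selection on Mki67 and Top2a favours and that is a description only.

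Mitotic genes were further apart. Ccnb1, the cyclin of mitotic entry, was at 89.7 and 88.9 CPM in cycling cells and at 16.6 and 23.7 CPM in non-cycling cells, a log2 difference of 2.40 ± 0.373. Plk1, a mitotic kinase, was at 75.2 and 74.6 CPM against 7.03 and 13.5 CPM (3.15 ± 0.394). Prc1, which bundles microtubules of the central spindle, was at 164 and 156 CPM against 7.81 and 13.2 CPM (4.2 ± 0.311). The promoter-shown genes Cdc20, at 103 and 90.3 CPM against 19.5 and 36.7 CPM, and Ube2c, at 364 and 236 CPM against 59.2 and 71 CPM, differed less than Prc1. Hist1h1b had the largest log2 difference among genes named by size, 4.34 ± 0.375, at 434 and 204 CPM against 16 and 20.5 CPM. It was followed by Aspm, a spindle pole protein, at 4.24 ± 0.601. In thinned cells, Ccnb1 had a UMI in 32.8% and 32.0% of cycling cells and in 5.31% and 12.5% of non-cycling cells. Unthinned, the shares were 85.9% and 70.1% against 21.9% and 16.7%. In non-cycling tissue cells, thinned shares were 1.83% and 1.33%.

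The regulators of the cycle did not move as 1 group. Of 31 cyclins, kinases and inhibitors, 25 had a positive difference, with a median of 0.58 on the log2 scale, and 21 did at the same depths, with a median of 0.30. The phase cyclins were higher, with Ccne1 at 35.3 and 25.3 CPM against 14.3 and 10.3 CPM and Ccna2, the cyclin of S phase and G2, at 119 and 102 CPM against 18.6 and 29.4 CPM. The D cyclins, which respond to mitogens in G1, were close in both classes. Ccnd1 was at 347 and 317 CPM against 289 and 335 CPM, and Ccnd2 at 441 and 453 CPM against 508 and 582 CPM. The log2 difference of Ccnd1 was 0.31 ± 0.108 and turned to -0.51 when both classes had the same depths, and that of Cdk4 went from 0.51 to -0.09.

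Cdkn1a, the p53-driven inhibitor p21, was lower in cycling cells, at 59.4 and 56.5 CPM against 200.02 and 132 CPM, a log2 difference of -1.28 ± 0.0975. It had a UMI in 17.5% and 17.1% of thinned cycling cells and in 36.3% and 27.3% of thinned non-cycling cells, although unthinned shares were nearly equal at 56.0% and 40.9% against 57.4% and 38.6%. Of 19 p53 targets, 4 had a positive difference, with a median of -0.53, and 2 did at the same depths, with a median of -0.94. Trp53inp1, another p53 target, was at 4.64 and 8.58 CPM against 23.6 and 30 CPM.

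Crypt stem genes were nearly level between the classes. Of the 26 genes of the Wnt and stem list 23 were measured well enough to compare, of which 11 had a positive difference, with a median of -0.02 beside 0.10 for all genes, and 10 without TMM scaling, with a median of -0.25 beside -0.10. Lgr5 was at 127 and 294 CPM in cycling cells and at 129.7 and 249.6 CPM in non-cycling cells. Its replicates differed more than its classes did. Ascl2 was at 63.4 and 52.1 CPM against 40 and 30.8 CPM (0.93 ± 0.14), and Sox9, a factor of crypt progenitors, at 77.4 and 81 CPM against 100.4 and 86.9 CPM. In thinned cells a UMI of Lgr5 was found in 37.1% and 59.6% of cycling and in 31.9% and 50.8% of non-cycling cells, and unthinned in 78.9% and 87.2% against 53% and 60.0%.

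Most genes of differentiated cells were lower in cycling cells. Of 24 colonocyte genes 2 had a positive difference, with a median of -1.91 on the log2 scale, and of 16 goblet and 16 enteroendocrine genes 1 and 0 did, with medians of -2.47 and -4.70. The median over all genes was 0.10. Summed colonocyte genes were at 2847 and 2291 CPM in cycling cells against 3789.9 and 3079 CPM in non-cycling cells. Car2, a carbonic anhydrase, made up much of that sum and was nearly level, at 1524 and 956 CPM against 1323 and 986 CPM, whereas Lypd8, a defence protein, was at 355 and 286 CPM against 605 and 382 CPM. Krt20, a keratin of mature colonocytes, gave 9 and 8 UMIs in all cycling cells of the 2 replicates, or 0.0596 and 0.129 CPM, against 11.5 and 3.78 CPM in non-cycling cells. Muc2, the main mucin of goblet cells, was at 3.27 and 19.7 CPM against 58.2 and 157 CPM (-3.29 ± 0.335). Neurog3, the factor that starts the enteroendocrine fate, was at 0.722 and 0.323 CPM against 39.3 and 10.5 CPM. Chgb, a secretory granule protein, was at 0.179 and 0.549 CPM against 28.1 and 167 CPM, with 3 and 8 non-cycling cells holding a UMI. The level of Chgb in non-cycling cells therefore came from few cells. When 25 non-cycling cells per library were drawn to the depth of the cycling cells, its log2 difference went from -7.65 to -0.999, and those of Muc2 and Neurog3 turned to 0.82 and 6.91. In that draw 7 of 16 goblet genes and 8 of 13 enteroendocrine genes were positive, with medians of -0.37 and 1.47.

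Areg, an EGF receptor ligand, was at 54.3 and 57.4 CPM against 144 and 159 CPM, and Sprr1a, a gene of injured and regenerating epithelium, at 2.35 and 5.75 CPM against 69.7 and 51.5 CPM. Of 20 fetal-like and regenerative genes 6 had a positive difference, and 1 did at the same depths. All 28 genes of the list of ribosome biogenesis and Myc targets had one, and 26 did at the same depths, where the median went from 0.92 to 0.41. Ncl, the nucleolar protein nucleolin, was at 1887 and 1469 CPM against 680.1 and 663 CPM.

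**Figure D3:**
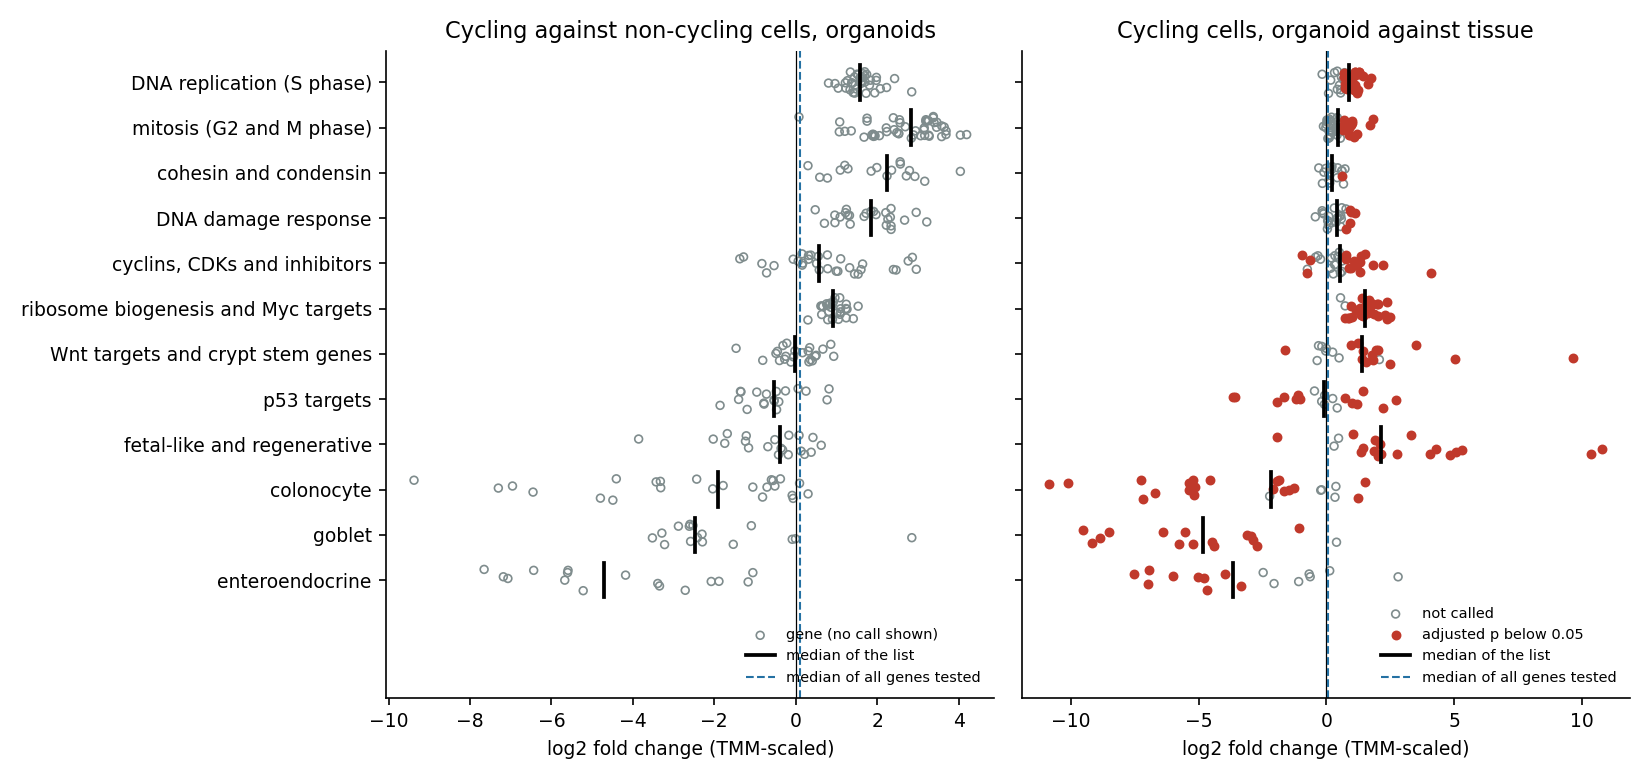
Log2 differences of listed genes, with cycling against non-cycling organoid cells on the left (description only) and cycling cells of organoids against those of tissue on the right, where red points passed an adjusted p of 0.05. Black bars are list medians, and the dashed line is the median of all genes tested. The mitotic list has a median of 2.84 on the left and 0.44 on the right, and the fetal-like list -0.39 and 2.12.

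Compared with cycling cells of colon tissue, cycling cells of organoids held more transcripts of stem, fetal-like, glycolytic and ribosome biogenesis genes and fewer of colonocyte, goblet and immediate early genes, while the mitotic list moved by a median of 0.44. Cycling cells kept their own depths in the comparisons between groups, and none of these was made at equal depth. Of 16759 genes tested, 35% passed an adjusted p of 0.05 in edgeR, with 3021 (18%) higher and 2850 (17%) lower in organoid cells. Without TMM scaling the split was 1525 higher and 3677 lower, and the median of all genes went from 0.06 to -0.28. Of 22 Wnt target and crypt stem genes tested, 13 rose and 1 fell, with a median of 1.41 beside 0.06 for all genes.

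Ascl2 was at 63.4 and 52.1 CPM in cycling organoid cells and at 13.4 and 13.3 CPM in those of tissue, a log2 difference of 2.5 ± 0.263 (edgeR adjusted p = 4.46e-05). Lgr5 was at 127 and 294 CPM against 81 and 68.1 CPM (1.81 ± 0.304, edgeR adjusted p = 0.00108). The organoid libraries lay above both tissue libraries for both genes. Axin2, a negative regulator and general readout of Wnt signalling, rose by 1.53 ± 0.236 (edgeR adjusted p = 0.000602). Myc, at 36.6 and 44.1 CPM against 14.1 and 12.8 CPM, rose by 1.94 ± 0.243 (edgeR adjusted p = 0.000145). The list did not move as a whole, since Smoc2, a marker of crypt-base stem cells, was at 41.1 and 56.5 CPM against 79.9 and 74.1 CPM (-0.31 ± 0.204, edgeR adjusted p = 0.272) and Sox9 at 77.4 and 81 CPM against 133 and 131 CPM (-0.36 ± 0.214, edgeR adjusted p = 0.217).

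Of the 31 cyclins, kinases and inhibitors, 13 passed on the higher side and 3 on the lower, with a median of 0.55, beside 18% and 17% of all genes. The counts were 8 and 5 without TMM scaling, where 1525 and 3677 of 16759 genes passed, 8 and 0 without tissue replicate 1, where 949 and 1383 of 17926 did, and 7 and 0 without tissue replicate 2. Ccnd1 was at 347 and 317 CPM against 83.9 and 102 CPM in tissue (2.22 ± 0.256, edgeR adjusted p = 8.15e-05), and Cdk4, its partner kinase, at 228 and 139 CPM against 63.7 and 74.1 CPM (1.83 ± 0.318, edgeR adjusted p = 0.00134). Ccne1 was at 35.3 and 25.3 CPM against 12.6 and 15.5 CPM (1.52 ± 0.296, edgeR adjusted p = 0.00267). Ccnd3, another D cyclin, was at 49 and 49.4 CPM against 45.3 and 48 CPM and did not pass (0.45 ± 0.224, edgeR adjusted p = 0.142). Replication genes passed in 25 of 38 cases, all higher, with a median of 0.88, yet in 11 of 38 without TMM scaling, in 14 with at most 5% mitochondrial UMIs, in 4 without tissue replicate 1 and in 14 without tissue replicate 2. Mitotic genes passed in 16 of 49 cases, all higher, with a median of 0.44, beside 18% of all genes, and in 3 of 49 without TMM scaling, a share no larger than that of all genes there, in 8 without organoid replicate 1, in 5 without tissue replicate 1 and in 2 without tissue replicate 2. Ccnb1 was at 89.7 and 88.9 CPM against 63.4 and 63 CPM (0.88 ± 0.214, edgeR adjusted p = 0.00906), a call lost without TMM scaling or without either tissue library. Cdkn1a was at 59.4 and 56.5 CPM against 45 and 54 CPM, which did not pass (0.61 ± 0.245, edgeR adjusted p = 0.0744).

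Fetal-like and regenerative genes rose in 17 of 20 cases and fell in 1, with a median of 2.12, beside 18% and 17% of all genes. Fewer of them passed without tissue replicate 1. Ly6a, the stem cell antigen Sca-1, was at 1489.5 and 1258 CPM against 110.1 and 107 CPM (4.05 ± 0.326, edgeR adjusted p = 6.46e-06). Clu, a marker of revival stem cells, was at 23.5 and 32.8 CPM against 3.52 and 7.6 CPM (2.76 ± 0.332, edgeR adjusted p = 0.000112). Krt4, a keratin of stratified epithelium, was at 49.7 and 71.2 CPM against 1.92 and 3.53 CPM (4.90 ± 0.342, edgeR adjusted p = 2.25e-06). Non-cycling organoid cells carried them as well, with Clu at 44 and 38.6 CPM and Ly6a at 1191 and 1190.3 CPM.

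Biosynthetic and glycolytic genes rose as well, beside 18% of all genes. The counts were 26 of 28 for ribosome biogenesis and Myc targets, with a median of 1.51, and 18 of 25 for hypoxia and glycolysis, with a median of 1.83. Ncl was at 1887 and 1469 CPM against 403 and 441 CPM (2.39 ± 0.351, edgeR adjusted p = 0.000446). Ldha, lactate dehydrogenase, was at 1496 and 1455 CPM against 337 and 403 CPM (2.37 ± 0.306, edgeR adjusted p = 0.00018). Slc16a3, a lactate exporter, was at 39.4 and 76.9 CPM against 0.8 and 1.36 CPM, which rest on 5 UMIs in each tissue library (6.16 ± 0.396, edgeR adjusted p = 1.26e-06).

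Immediate early and lineage genes fell. Of 19 immediate early genes 17 passed on the lower side and 1 on the higher, with a median of -2.23, beside 17% and 18% of all genes. Fos was at 67.7 and 71.6 CPM against 757 and 780.1 CPM (-3.09 ± 0.263, edgeR adjusted p = 9.94e-06), and Jun at 70 and 58.5 CPM against 1025 and 1112 CPM (-3.67 ± 0.301, edgeR adjusted p = 7.73e-06). Both encode subunits of the AP-1 factor, and the dissociation protocol, which differed between tissue and organoids, cannot be told apart from the group. Colonocyte genes fell in 17 of 24 cases and goblet genes in 15 of 16, beside 17% of all genes. Slc26a3, a chloride exchanger of colonocytes, was at 0.424 and 0.663 CPM against 24.6 and 26.3 CPM (-5.22 ± 0.319, edgeR adjusted p = 8.98e-07). Muc2 was at 3.27 and 19.7 CPM against 3217 and 6822 CPM (-8.51 ± 0.889, edgeR adjusted p = 4.21e-05). In tissue, however, Muc2 had a UMI in 73.0% and 83.2% of thinned cycling cells and in 75.8% and 87.2% of non-cycling ones, a like share in both classes, and how much of it is free RNA was not tested.

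**Figure D4:**
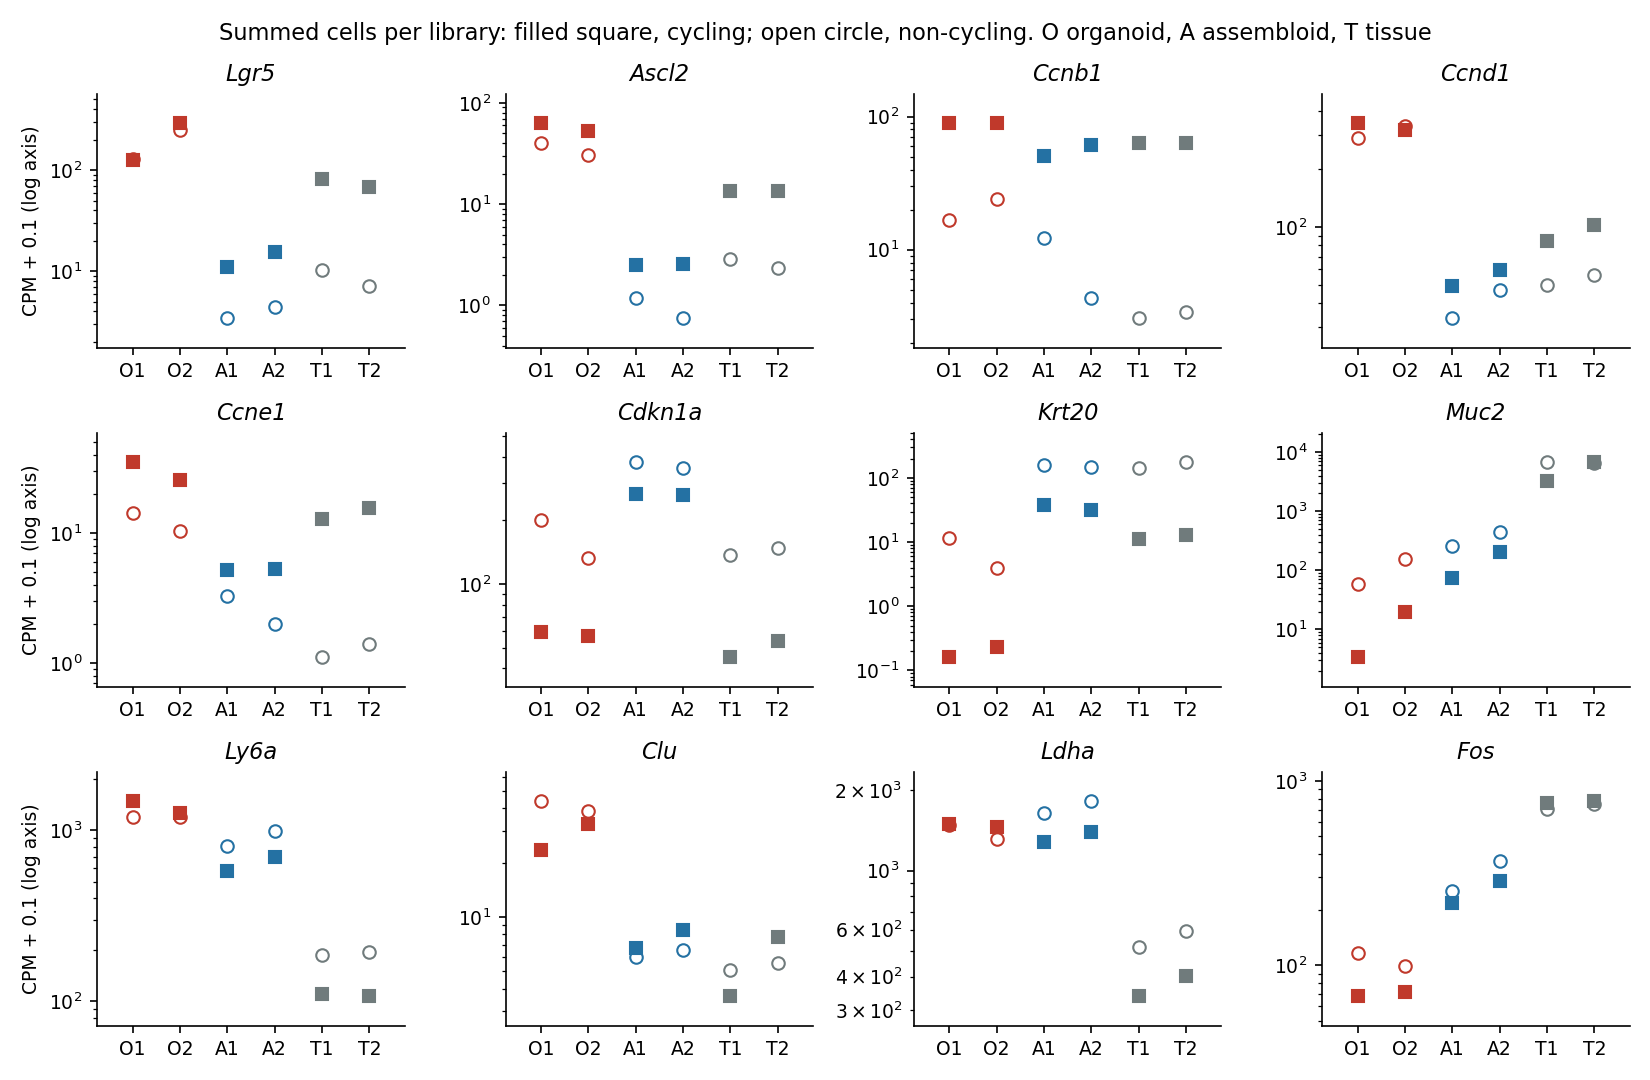
Levels of 12 genes as CPM + 0.1 (log axis) in the summed cells of each library, with squares for cycling and circles for non-cycling cells, in red for organoids (O1, O2), blue for assembloids (A1, A2) and grey for tissue (T1, T2). Lgr5 lies at 127 and 294 CPM in cycling organoid cells, close to the non-cycling circles, while in tissue the squares at 81 and 68.1 CPM lie well above the circles at 10.2 and 7.03 CPM.

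Against cycling cells of assembloids, which grew from organoids together with stroma, 48.2% of 16759 genes passed, 3574 (21.3%) higher and 4501 (26.9%) lower in organoids. Organoid libraries are common to the comparisons with tissue and with assembloids, which are therefore not independent. Stem genes rose, with 17 of 22 passing, 0 lower, and a median of 1.78 beside 0.04 for all genes. Lgr5 was at 127 and 294 CPM against 10.9 and 15.2 CPM (3.92 ± 0.329, edgeR adjusted p = 6.75e-06). Ascl2 was at 63.4 and 52.1 CPM against 2.43 and 2.44 CPM (4.54 ± 0.278, edgeR adjusted p = 9.7e-07). Smoc2, which did not differ detectably from tissue, was at 41.1 and 56.5 CPM against 2.4 and 3.26 CPM (4.06 ± 0.235, edgeR adjusted p = 8.65e-07).

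Replication genes rose in 33 of 38 cases with a median of 1.47, whereas of the mitotic genes 12 of 49 passed on the higher side, a share near the 21.3% of all genes, and 1 on the lower, with a median of 0.33. Cdc6 was at 32.9 and 31.8 CPM against 7.53 and 7.51 CPM (2.06 ± 0.261, edgeR adjusted p = 0.000107), and Mcm5 at 86.9 and 96.4 CPM against 31.8 and 36.2 CPM (1.39 ± 0.223, edgeR adjusted p = 0.00049). Plk1 was at 75.2 and 74.6 CPM against 35.4 and 40.6 CPM (0.94 ± 0.216, edgeR adjusted p = 0.00416). The mitotic count was 21 with at least 1 UMI of each gene as the limit, 19 without organoid replicate 2, 5 without either assembloid library, and 7 and 6 without tissue replicates 1 and 2. Ccne1 was at 35.3 and 25.3 CPM against 5.15 and 5.22 CPM (2.53 ± 0.291, edgeR adjusted p = 5.78e-05), and 19 of 25 genes of the DNA damage response rose and 1 fell.

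Of 19 p53 targets 11 fell and 3 rose, with a median of -1.43, beside 26.9% of all genes lower and 21.3% higher. Cdkn1a was at 59.4 and 56.5 CPM against 268 and 263 CPM (-2.23 ± 0.248, edgeR adjusted p = 4.51e-05), and Mdm2, the p53 ubiquitin ligase, at 26.1 and 38.1 CPM against 80.8 and 108 CPM (-1.61 ± 0.213, edgeR adjusted p = 0.000142). Areg was at 54.3 and 57.4 CPM against 404 and 448 CPM (-2.97 ± 0.247, edgeR adjusted p = 6.21e-06). Hypoxia and glycolysis genes fell in 13 of 25 cases and rose in 0, beside the same shares of all genes. Slc2a1, the glucose transporter GLUT1, was at 45.5 and 61.6 CPM against 212 and 225 CPM (-2.09 ± 0.224, edgeR adjusted p = 3.58e-05). Krt20 was at 0.0596 and 0.129 CPM, near the floor, against 37.8 and 31.1 CPM. At that level it entered the fit only through the other groups, so no test is given for it. Of the colonocyte genes, 16 of 24 fell and 3 rose, beside 26.9% and 21.3% of all genes.

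Of the fetal-like genes 7 rose and 9 fell, beside 21.3% and 26.9% of all genes, so the list had no common direction. Ly6a was at 1489.5 and 1258 CPM against 577 and 701 CPM (1.08 ± 0.29, edgeR adjusted p = 0.00979), a call lost without assembloid replicate 1, and Clu at 23.5 and 32.8 CPM against 6.64 and 8.4 CPM (1.85 ± 0.284, edgeR adjusted p = 0.000365). Sprr1a went the other way, at 2.35 and 5.75 CPM against 214 and 273 CPM. All 7 fibroblast markers and all 5 tested immune markers were lower in organoids, as a description. In cycling organoid cells summed fibroblast markers were at 0.5 and 0.8 CPM and summed immune markers at 0.7 and 0.9 CPM. At such levels these genes entered the fit largely through the other groups, which all but fixed the direction.

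The last comparison asked whether the difference between cycling and non-cycling cells itself was unlike that in tissue, by an interaction term in 1 fit over all 12 sums. It passed for 17.2% of 17590 genes, 13.2% with a more positive and 4.01% with a more negative difference in organoids, and without TMM scaling 567 genes were more positive and 2806 more negative, with the median of all genes moving from 0.17 to -0.34. A limit of 5% mitochondrial UMIs left 56 and 35 cycling cells in tissue. With it the split turned over, to 114 more positive and 381 more negative. At the same depths the counts were 548 (3.88%) and 555 (3.93%), or 7.81% of 14123 genes. Stem genes stood on the negative side, with 13 of 23 passing and a median of -0.79, and 19 of 23 without TMM scaling, 6 without tissue replicate 1 and 4 without tissue replicate 2.

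Lgr5 was at 81 and 68.1 CPM in cycling and at 10.2 and 7.03 CPM in non-cycling cells of tissue, but at 127 and 294 against 129.7 and 249.6 CPM in organoids, a difference of differences of -2.49 ± 0.127 (edgeR adjusted p = 5.46e-05) that was called under every alternative. Smoc2 was at 79.9 and 74.1 CPM against 13 and 13.5 CPM in tissue and at 41.1 and 56.5 CPM against 67.4 and 48.8 CPM in organoids (-2.30 ± 0.283, edgeR adjusted p = 0.00106). Per UMI, both genes were thus higher in cycling than in non-cycling cells of tissue, whereas in organoids Lgr5 was nearly level and the replicates of Smoc2 went opposite ways. The non-cycling classes were unlike in division RNA and in RNA of differentiated cells. Summed replication genes were at 1139 and 1469 CPM in non-cycling cells of organoids, against 355 and 450 CPM in those of tissue. Summed colonocyte genes were at 3789.9 and 3079 CPM against 15956 and 16192 CPM, and goblet genes at 2825 and 1774 CPM against 26135 and 27148 CPM. The part of these differences in the interactions was not tested. For Smoc2 the organoid difference of -0.06 turned to 1.57 when 25 non-cycling cells per library were drawn to the depth of cycling cells. The larger number of non-cycling tissue cells still gave 243 and 145 UMIs of Lgr5, against 506 and 251 in cycling ones. Ascl2 had an interaction of -1.18 ± 0.24 (edgeR adjusted p = 0.0109), which was lost under 5 alternatives, among them leaving out organoid replicate 1 or either tissue library. Ccne1, with an interaction of -1.77 ± 0.315 (edgeR adjusted p = 0.00587), was at 14.3 and 10.3 CPM in non-cycling organoid cells and at 1.01 and 1.31 CPM in those of tissue. That call was lost without either tissue library.

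Some division genes also differed less between the classes in organoids than in tissue, on calls that depended on single libraries. All but 2 of the 38 replication genes and all but 4 of the 49 mitotic genes had a negative interaction, with medians of -0.99 and -1.46 beside 0.17 for all genes. The test passed on that side for 10 and 11 of them, beside 4.01% of all genes, and on the other for 0 and 1, for 14 and 26 at the same depths, for 1 and 2 without organoid replicate 2, for 6 mitotic genes without organoid replicate 1, for 0 and 1 without tissue replicate 1 and for 0 and 3 without tissue replicate 2. Without either assembloid library, which share the spread in this fit, it passed for 25 and 37, and without the library block for 0 and 0. Summed mitotic genes were at 4655 and 4388 CPM in cycling and 826 and 1174 CPM in non-cycling organoid cells, against 4231 and 3824 CPM and 291 and 343 CPM in tissue. The summed levels were thus closer between the groups in cycling than in non-cycling cells. Median depth of non-cycling cells was 18996 and 7966.5 UMIs in organoids and 15550 and 9460 UMIs in tissue. Ccnb1 had an interaction of -1.65 ± 0.584 (edgeR adjusted p = 0.0953), which did not pass.

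Among the genes named by size on the positive side, Prdx6, a peroxiredoxin, was at 231 and 248 CPM in cycling and 2186 and 2312 CPM in non-cycling tissue cells, but at 538 and 333 against 624 and 357 CPM in organoids (3.59 ± 0.0795, edgeR adjusted p = 3.56e-07). Trpm6, a magnesium channel, was at 26.2 and 17.4 CPM against 131 and 119.8 CPM in tissue and at 37.7 and 64 CPM against 26 and 66.4 CPM in organoids (3.24 ± 0.244, edgeR adjusted p = 0.000126). Ano1, a chloride channel, was at 53.1 and 44.2 CPM against 215 and 182 CPM in tissue and at 45.7 and 73.3 CPM against 41.4 and 92.3 CPM in organoids, with an interaction of 2.44 ± 0.183 (edgeR adjusted p = 0.000123). All 3 were called under every alternative.

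**Figure D5:**
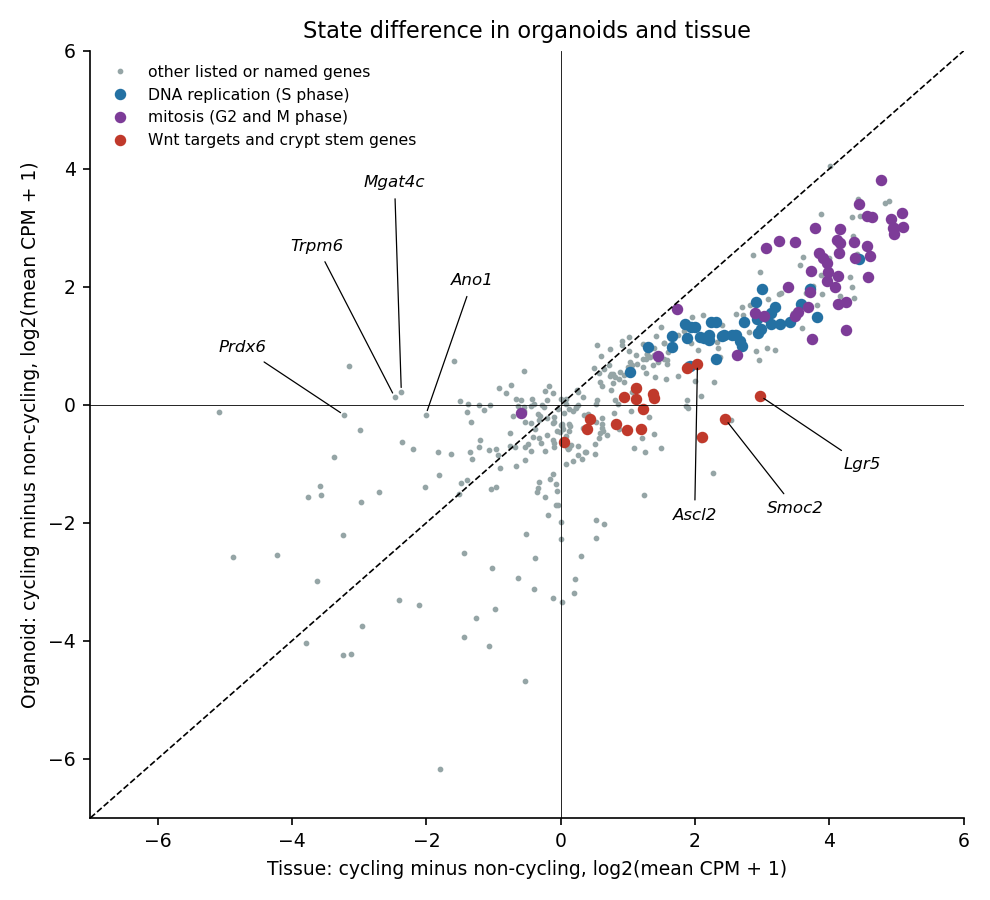
Difference between cycling and non-cycling cells in tissue (x axis) and in organoids (y axis), as log2 of mean CPM + 1, for listed or named genes at 20 CPM or more in at least 1 sum; the dashed line marks equal differences. Nearly all replication and mitotic genes lie to the right of the line, and Lgr5 and Smoc2 lie near 0 in organoids, with interactions of -2.49 and -2.30.

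Against assembloids the interaction passed for 8.33% of genes, 5.63% more positive and 2.71% more negative in organoids, and for 163 and 1612 genes without TMM scaling, where the median of all genes moved from 0.09 to -0.26. Here the p53 targets stood out, with 11 of 19 on the negative side, 0 on the positive and a median of -1.01, and with 12 at the same depths (beside 4.91% of all genes, 2.18% more positive and 2.73% more negative), 6 without organoid replicate 1 and 0 without the library block. Mdm2 was at 26.1 and 38.1 CPM in cycling and 35.6 and 71.8 CPM in non-cycling organoid cells, but at 80.8 and 108 CPM against 51.5 and 55.4 CPM in assembloids (-1.14 ± 0.184, edgeR adjusted p = 0.0112). Ccng1, another p53 target, was at 59.8 and 64.2 CPM against 111 and 97.7 CPM in organoids and at 53.9 and 73.6 CPM against 39 and 41.7 CPM in assembloids (-1.04 ± 0.133, edgeR adjusted p = 0.00524). Both genes were thus lower in cycling than in non-cycling cells of organoids and higher in those of assembloids. Median depth of non-cycling assembloid cells was 3847.5 UMIs in replicate 1 and 13171 in replicate 2. Summed fibroblast markers were at 713 and 813 CPM in them, against 211 and 304 CPM in cycling assembloid cells. The part of depth and of this foreign RNA in the interactions was not tested.

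Replication and mitotic genes gave no settled direction in this interaction, with 2 of 38 and 2 of 49 passing, all positive, and medians of -0.27 and -0.16. Without assembloid replicate 1, 19 replication and 26 mitotic genes passed on the negative side and 2 and 3 on the positive, and without assembloid replicate 2, 9 and 23 passed on the positive side and 0 and 2 on the negative. Lgr5, at 10.9 and 15.2 CPM against 3.32 and 4.31 CPM in assembloids, had an interaction of -1.31 ± 0.127 (edgeR adjusted p = 0.00232), which was lost at the same depths. Krt20 was lower in cycling cells of both kinds but more so in organoids, by -4.17 ± 0.466. The cycling level in organoids rests on 9 and 8 UMIs, near the floor, so this is a description and no test is given for it. Sprr1a was at 214 and 273 CPM against 286 and 343 CPM in assembloids, close in both classes, and its interaction was -3.35 ± 0.374 (edgeR adjusted p = 0.00325).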

How the data were processed

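Single-cell RNA was measured in 6 libraries labelled as epithelial cells, 2 each of organoids, assembloids and colon tissue, as 10x 3′ libraries. Deposited values were UMI counts for each gene in each barcode, which the authors made with Cell Ranger, version 7.1.0 per the file headers and version 6 per the labels. The deposited counts were used as they are, and 0 columns of samples were left out. Barcodes with at least 500 genes, 2000 UMIs and at most 10% mitochondrial UMIs were kept. At the gene and mitochondrial limits alone, which the study states, 12906 organoid barcodes would remain, against 9377 here. No doublet caller was run, and leaving out the deepest 6% of cells was an alternative.

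UMIs were summed per library and class and tested with edgeR 4.0.16 (quasi-likelihood test, filterByExpr, TMM, Benjamini-Hochberg adjusted p below 0.05) in R 4.3.3. One fit over 12 sums held the library as a block and the cycling effect by group, and another compared the cycling cells of the 3 groups. Draws to the same depth were made for the fit over 12 sums only. Standard errors are the log2 difference divided by the square root of F. CPM are counts per 1e6 UMIs of the summed total, without TMM. DESeq2 1.42.0 was an alternative, and the scripts were tested on simulated data. Summaries used Python 3.11.15, with numpy 2.4.6, scipy 1.17.1 and pandas 2.3.3. Binomial intervals (95%, exact) cover counting error only.

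Members and gene lists were chosen with earlier results of these data known. Named genes come from those lists, or are among the 10 highest or 10 lowest called genes at 20 CPM or more whose libraries do not overlap (for effects of the cycling class, of the same sign in both organoid libraries), leaving out Mki67, Top2a and mitochondrial, ribosomal protein, immunoglobulin and unnamed genes.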

Additional observations from a re-analysis of the deposited data

Results flagged for a closer look

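Each gene below was marked because its difference between cycling and non-cycling cells was unlike in organoids and another group by the edgeR interaction test, and values are the log2 difference in organoids minus that in the other group. Against tissue, stem and ion transport genes had Lgr5 at -2.49, Smoc2 at -2.30, Ascl2 at -1.18 and Slc12a2 at -0.64. Division and repair genes had Ccne1 at -1.77 and Brca1 at -2.49, and the call of Brca1 was lost without organoid replicate 2 or either tissue library. On the positive side were Prdx6 at 3.59, Trpm6 at 3.24, Sprr2a3 at 3.17, Mgat4c at 3.16, Ano1 at 2.44, Lypd8 at 2.29 and Gda at 2.19. Lypd8, a defence protein of colonocytes, was at 1172 and 1170.2 CPM in cycling and 6265 and 5837 CPM in non-cycling tissue cells, and at 355 and 286 CPM against 605 and 382 CPM in organoids.

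Against assembloids, the values were -1.31 for Lgr5, -1.09 for Slc12a2, -4.17 for Krt20, -2.82 for Creb3l1, -1.14 for Mdm2, -1.04 for Ccng1 and -3.35 for Sprr1a. Krt20 was near the floor in cycling organoid cells, so its value is a description only. Positive values were 1.41 for Prdx6, 2.73 for Cxcl5 and 1.45 for Insig1. Creb3l1 was at 5.05 and 8.03 CPM in cycling and 48.8 and 38 CPM in non-cycling organoid cells, but at 64 and 68.3 CPM against 47 and 55.4 CPM in assembloids. Cxcl5, a neutrophil-attracting chemokine, was at 35.4 and 30.3 CPM against 23.6 and 18.4 CPM in organoids and at 7.56 and 4.92 CPM against 19.4 and 21.6 CPM in assembloids.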

How the results depend on the processing

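Of 2039 values under alternatives for 133 pairs of a gene and a comparison, 1913 (93.8%) were labelled the same. These kept their side of the threshold, and kept their direction wherever the gene was called. Of the rest, 89 lost the call, 31 gained one and 6 reversed. The pairs include the contrast of the classes within organoids, where calls follow from the selection, so 93.8% is not a measure of support. Reversed were Ccnd1 (-0.51) and Cdk4 (-0.089) with both classes at the same depths, and Ccnd1 (-0.77), Smoc2 (1.57), Muc2 (0.82) and Neurog3 (6.91) with 25 non-cycling cells per organoid library drawn to the depth of cycling cells, all in organoids between the classes; the cause was not tested. The cycling share of 63.9% was 19.9% after thinning, 78.0% with at least 1 UMI of each gene and 56.7% to 71.0% with 1 organoid library.

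Calls between the classes in organoids (4779) became 2420 at the same depths, 2186 with non-cycling cells drawn deeper and 2741 to 6215 on leaving out a library, lowest without organoid replicate 1. The interaction with tissue (3027) became 1103, 1010 and, on leaving out a library, 1372 to 4281, with 1585 and 1372 without tissue replicates 1 and 2, and 495 (114 more positive, 381 more negative) with at most 5% mitochondrial UMIs. The interaction with assembloids (1466) became 694, 558 and 827 to 3508, with 3508 and 2985 without assembloid replicates 1 and 2 and 827 and 835 without tissue replicates 1 and 2, 560 (204 and 356) with at most 5% mitochondrial UMIs and 2672 without a filter on low counts. Cycling cells against tissue (5871) gave 3886 with at most 5% mitochondrial UMIs and 2332 to 6136 on leaving out a library, with 3685 without organoid replicate 1 and 2332 and 2815 without tissue replicates 1 and 2, and against assembloids (8075) 5770 to 7638. A lone library was assumed to vary like the other groups.

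Without the library as replicate block, which ties both classes of 1 library, calls were 1297 between the classes, 97 for the interaction with tissue and 8 for that with assembloids. Between groups, numbers are only names: deviations of same-numbered samples correlated at 0.177 for organoids with assembloids, -0.117 for organoids with tissue and 0.197 for assembloids with tissue over 6548 genes. Adding the number as a replicate block gave 2982 higher and 2847 lower genes against tissue and 3513 and 4438 against assembloids. The crossed pairing with tissue, chosen after seeing the data like the draw to the same depths, gave 3067 and 2915.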
